A study of Homo sapiens with 12 samples.

Results

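The heavy chains HLA-B, HLA-C, HLA-E and HLA-F, their shared light chain B2M, the class I-like protein MR1 and the transcriptional coactivator NLRC5 were followed in THP-1 cells, macrophages of a line grown from a human monocytic leukaemia. These 7 genes were chosen by name from the antigen presentation pathway, and all 7 were found among the 58735 genes of the count table and passed the filter on low counts that left 15471 genes for testing. The tested libraries came from cells given miR-122-5p mimic, a synthetic copy of that microRNA, and the others from cells given a control miRNA mimic, 6 libraries each. The cells of every library received 30 nM of their mimic through RNAimax for 24 h, were then rested, and were exposed to lipopolysaccharide (LPS) for 4 h, so no value here describes unstimulated or untransfected cells. Per the labels, the aim was to learn how miR-122-5p carried by exosomes regulates immune cells. One cell line was used, and nothing in the labels states that the 6 libraries of a group were grown separately. The p-values therefore rest on the spread between libraries, which may be technical.

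A class I molecule consists of a heavy chain bound to beta-2-microglobulin, the product of B2M, and displays a peptide on the cell surface. The classical chains HLA-B and HLA-C present peptides to CD8 T cells, and HLA-C is also read by killer cell receptors. HLA-E presents leader peptides of other class I chains to the receptor CD94/NKG2A. HLA-F is a nonclassical chain recognised by receptors of natural killer cells, partly without peptide. MR1 pairs with B2M to present vitamin B metabolites to mucosal-associated invariant T cells. NLRC5 is a member of the NLR family that binds no DNA itself but assembles with RFX, NF-Y and CREB-type factors at the SXY module of class I promoters. Interferons raise class I genes through IRF1 and NLRC5, and LPS also acts on them through NF-kB.

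The mature microRNA is shown because its seed, in capitals (bases 2 to 8 from the 5′ end), decides which messenger sites it can pair with. It comes from RefSeq (GRCh38.p14, chr18:58451088-58451109, plus strand).
hsa-miR-122-5p: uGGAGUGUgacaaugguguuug

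The longest annotated 3′ UTR (GENCODE 29) of each gene was searched for the words this seed can pair with, namely ACACTCCA (8mer), ACACTCC (7mer-m8), CACTCCA (7mer-A1) and CACTCC (6mer), on the sense strand, each gene being put in its strongest class. HLA-E, NLRC5 and MR1 held 7mer-A1 words, B2M held a 6mer word, and HLA-B, HLA-C and HLA-F held none. Matches in 3 of these genes are shown with their flanks, as examples of both classes, the matching letters in capitals.
B2M, from base 573 of 1285: tcttatatctCACTCCcactattacc
NLRC5, from base 1780 of 2660: gggcgctctgCACTCCAcccaggagga
MR1, from base 530 of 6673: aggattggatCACTCCAtgagagtagc

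Among 12892 tested genes with an annotated 3′ UTR, 15.95% had a 7mer-A1 word as their strongest match and 14.19% a 6mer word, against 60.1% with none. MR1 had the longest 3′ UTR of the 7 genes, longer than those of 95.9% of the genes compared. Matches were commoner over whole exon sequences, where HLA-F held an 8mer word and all 7 genes held a word of at least 7 letters. There the strongest match was an 8mer word in 8.8% of the 12892 genes, a 7mer-m8 word in 14.5% and a 7mer-A1 word in 28.3%. A match is a description of these letters and does not show that the microRNA binds there.

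The promoters of HLA-B, HLA-C, HLA-F and B2M are printed because each holds an ISRE word and CCAAT words and because their fold changes are set beside these words later. Each entry of the RefSeq table (GRCh38.p14) runs from 250 bases before the gene's start to 50 after, given in the direction of the gene. Capitals mark the words searched on both strands, which were GAANNGAAA (the shorter form of an interferon-stimulated response element, ISRE), a longer form with 1 more A after its first GAA, TTCNNNGAA (gamma-activated sequence), GGGNNTTCC, also with 1 more T (kappa B), CCAAT (Y box) and TGACG (X2 box).
HLA-B, chr6:31357130-31357429, minus strand: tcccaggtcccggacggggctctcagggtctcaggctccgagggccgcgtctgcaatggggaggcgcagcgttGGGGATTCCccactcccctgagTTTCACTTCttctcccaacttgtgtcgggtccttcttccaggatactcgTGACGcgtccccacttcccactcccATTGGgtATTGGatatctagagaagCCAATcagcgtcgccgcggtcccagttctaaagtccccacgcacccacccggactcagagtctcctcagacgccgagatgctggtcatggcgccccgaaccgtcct
HLA-C, chr6:31272043-31272342, minus strand: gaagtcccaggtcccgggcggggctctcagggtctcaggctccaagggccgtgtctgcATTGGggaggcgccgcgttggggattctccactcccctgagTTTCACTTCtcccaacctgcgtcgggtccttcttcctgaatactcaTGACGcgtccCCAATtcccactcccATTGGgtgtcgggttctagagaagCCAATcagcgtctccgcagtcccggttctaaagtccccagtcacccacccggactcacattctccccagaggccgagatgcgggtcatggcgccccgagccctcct
HLA-F, chr6:29723184-29723483, plus strand: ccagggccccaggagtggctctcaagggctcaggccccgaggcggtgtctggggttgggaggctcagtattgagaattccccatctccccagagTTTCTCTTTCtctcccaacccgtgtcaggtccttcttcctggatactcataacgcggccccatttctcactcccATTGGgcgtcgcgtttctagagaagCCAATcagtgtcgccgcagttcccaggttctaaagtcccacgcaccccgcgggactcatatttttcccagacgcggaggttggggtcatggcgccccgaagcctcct
B2M, chr15:44711267-44711566, plus strand: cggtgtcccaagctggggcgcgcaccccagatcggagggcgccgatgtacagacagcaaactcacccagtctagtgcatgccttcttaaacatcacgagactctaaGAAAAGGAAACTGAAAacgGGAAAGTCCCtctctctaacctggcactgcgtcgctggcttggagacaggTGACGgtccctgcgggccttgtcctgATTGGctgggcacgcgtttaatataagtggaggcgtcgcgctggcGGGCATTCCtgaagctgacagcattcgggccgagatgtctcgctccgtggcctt

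In HLA-B the shorter ISRE word began 155 bases before the start, in HLA-C 151 bases, and in both a TGACG word and several CCAAT words lay between it and the start. HLA-B also had a kappa B word 177 bases before the start. HLA-F had the longer ISRE word at 156 bases and CCAAT words at 82 and 57 bases, with no kappa B or TGACG word in this window, and HLA-C had no kappa B word there. B2M held 2 overlapping copies of the longer ISRE word at 144 and 138 bases, kappa B words at 125 and 4 bases, TGACG at 75 bases and CCAAT at 49 bases. Of 35116 promoters of the same length, 3.57% held the longer ISRE word, 7.66% the shorter one, 7.66% the gamma-activated word, 7.89% a kappa B word, 34.6% CCAAT and 24.6% TGACG. MR1 had 2 entries, and the second held a TTCNNNGAA word 30 bases before its start and CCAAT words at 218 and 62 bases. No promoter is shown for HLA-E and NLRC5.

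The total of gene counts was 29473750 to 35684464 in libraries with miR-122-5p and 31019890 to 39468157 in those with the control mimic. The 7 genes together took 0.889% to 0.947% of the counts with miR-122-5p and 1.08% to 1.32% in the controls. The macrophage label was set against 10 marker genes, whose summed level was 2440 to 2966 CPM (normalised counts relative to library size, with TMM factors) with miR-122-5p and 2413 to 2777 CPM in the controls. TYROBP, ITGAM, CSF1R, FCER1G and SPI1 were abundant, while CD14 averaged 13.6 CPM with miR-122-5p and 17.8 CPM in the controls, LYZ 11.2 and 10.5 CPM, and CD163 5.12 and 8.96 CPM. CD68 and MRC1 had at most 18 and 16 counts in any library, and 85.8% of the exons of CD68 overlap other genes. CD163, CD14, FCER1G and CSF1R were lower with miR-122-5p (log2 fold changes -0.81, -0.39, -0.38 and -0.36), and TYROBP and ITGAM were higher (0.30 and 0.19), each called by edgeR, and their part in the results was not tested. Of 4 T cell markers, 3 were at 0 in every library. The 3 natural killer markers summed to at most 51.3 CPM with miR-122-5p and 40.0 CPM in the controls, and the 2 hepatocyte markers to 11.1 to 13.9 CPM with miR-122-5p and 6.26 to 8.63 CPM in the controls. Control libraries 1, 5 and 6 stood apart in how counts depended on transcript GC content, with slopes of -0.318, -0.223 and -0.214 on the log2 scale per 10 percentage points, against -0.0726 to 0.0119 in the other controls. Values without these 3 libraries are given where they moved a result by over 1.5 times or changed a call, and for B2M, HLA-B and HLA-C. In bulk RNA, fewer cells making a transcript and less of it per cell cannot be told apart.

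Of the 7 genes, 6 fell with miR-122-5p, none rose, and HLA-B did not pass the test. Genes passed at an adjusted p under 0.05 (edgeR's quasi-likelihood test, Benjamini-Hochberg over 15471 genes), by which 50.5% of all genes were called, 26.2% lower and 24.3% higher. Without a GC correction the falls were largest for MR1, NLRC5 and HLA-E, of intermediate size for HLA-F and B2M, and small for HLA-C. The median log2 fold change (miR-122-5p over control) of the 7 was -0.57, beside 0.01 over all genes tested. In 5 of the 7 genes every miR-122-5p library lay below every control library, as was so for 16.1% of all genes, with 13.4% separated the other way. Falls larger than those of MR1 and NLRC5 were measured in 1173 and 1385 of the tested genes, and falls larger than that of HLA-C in 5809.

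**Figure D1:**
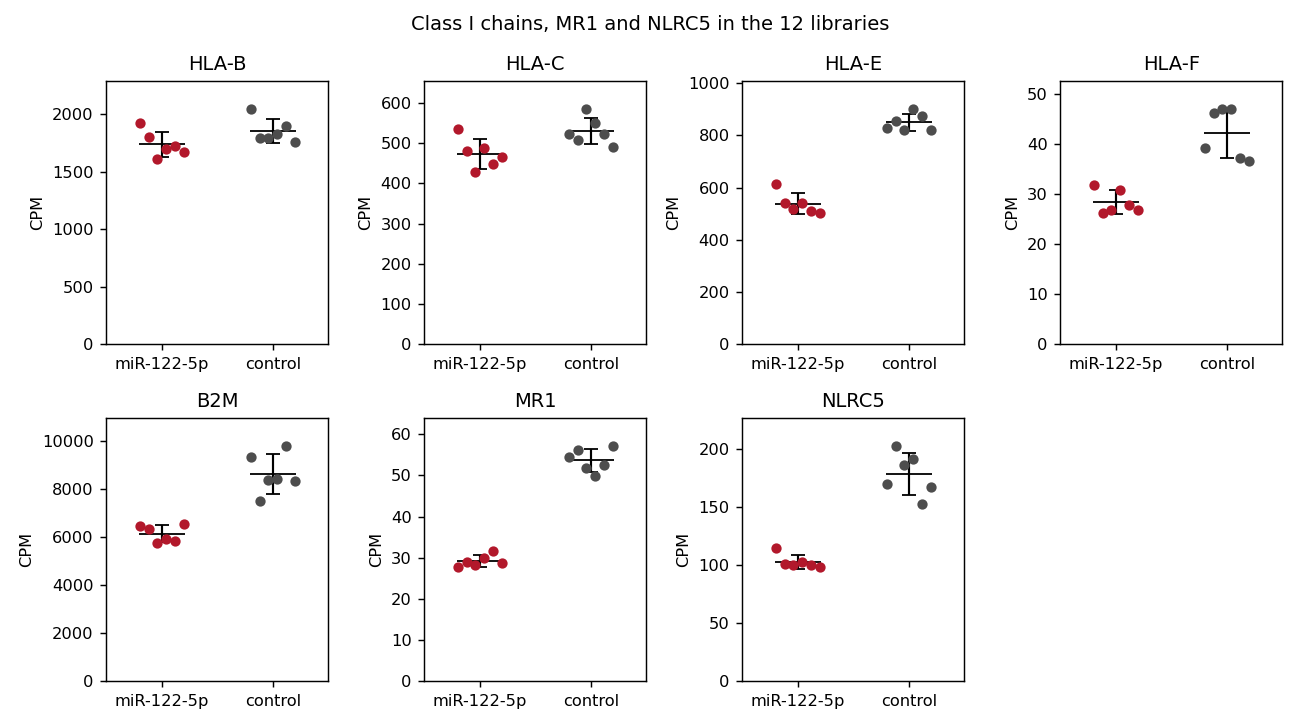
Normalised counts (CPM, an axis from 0 for each gene) of the 7 genes in each library, 6 with miR-122-5p on the left of each panel and 6 controls on the right. Points are libraries, and the black marks are means with SD. For HLA-E, HLA-F, B2M, NLRC5 and MR1 the groups do not overlap, while for HLA-B and HLA-C they do.

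Among the classical heavy chains, HLA-B showed the highest level and the least difference. HLA-B ran from 1610 to 1924 CPM with a median of 1709 in miR-122-5p libraries, and from 1761 to 2043 CPM with a median of 1811 in control libraries. The groups overlapped, and the log2 fold change of -0.09 ± 0.06 (SE) had an adjusted p of 0.220 in edgeR's test, with a 95% interval of -0.23 to 0.04. HLA-C ran from 428 to 536 CPM with a median of 473 with miR-122-5p, and from 491 to 585 CPM with a median of 524 in the controls. These groups overlapped too, and HLA-C fell by 0.16 ± 0.07 on the log2 scale, close to the threshold (edgeR adjusted p = 0.0456).

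Both calls depended on how the libraries were treated. The HLA-C call ended under RLE size factors (adjusted p = 0.0608), library totals (0.0930), no low-count filter (0.164), a replicate block (0.0698) and an adjusted p limit of 0.01 (by which 20.7% of all genes were called lower), and it held in 4 of 12 fits that left out 1 library each (adjusted p 0.0162 to 0.141). It ended without any one of miR-122-5p libraries 2, 3, 4, 5 and 6 (adjusted p 0.0813, 0.141, 0.0726, 0.127 and 0.0887) or control libraries 2, 3 and 4 (0.0521, 0.140 and 0.106). With each library's trends with GC content and length removed, HLA-B fell by 0.38 (edgeR adjusted p = 4.99e-05) and HLA-C by 0.57 (4.20e-07) on the log2 scale. With the GC slope as a covariate neither was called, HLA-B at -0.05 (edgeR adjusted p = 0.794) and HLA-C at -0.28 (0.0764). Without control libraries 1, 5 and 6 HLA-B was at -0.06 (0.504) and HLA-C at -0.21 (0.0199).

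The nonclassical chains HLA-E and HLA-F fell more. HLA-E ran from 502 to 614 CPM with a median of 528 in miR-122-5p libraries, and from 820 to 901 CPM with a median of 842 in control libraries. The groups were far apart, and HLA-E fell by 0.66 ± 0.06 on the log2 scale (edgeR adjusted p = 1.68e-08). HLA-F, a low-level transcript, ran from 26.2 to 31.9 CPM with a median of 27.4 with miR-122-5p, and from 36.6 to 46.9 CPM with a median of 42.8 in the controls. Its groups did not overlap either, and it fell by 0.57 ± 0.09 (edgeR adjusted p = 1.04e-05). Part of the annotated exons of HLA-F are shared with opposite-strand transcripts, among them HLA-F-AS1 over 12.3% of their length, and since the strand setting of the counting is not given in the sources used here, those reads cannot be told apart. The same holds for 17.8% of the exons of HLA-B, shared with the opposite-strand pseudogene AL671883.2.

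B2M, the light chain that all these heavy chains and MR1 need, was the most abundant of the 7. B2M ran from 5742 to 6550 CPM with a median of 6139 in miR-122-5p libraries, and from 7501 to 9812 CPM with a median of 8404 in control libraries. Every control library was higher than every miR-122-5p library, with the 2 highest values in control libraries 5 and 1, and B2M fell by 0.49 ± 0.07 on the log2 scale (edgeR adjusted p = 2.52e-06). Controls 1 and 5 were also those with the steepest loss of counts at high GC content, and B2M is the most GC-poor of the 7 at 40.6%. Whether these are linked was not tested. Without control libraries 1, 5 and 6 B2M fell by 0.40 (edgeR adjusted p = 1.47e-05). With GC and length trends removed it fell by 0.23 (0.000672), and with the GC slope as a covariate it changed by -0.28 and did not pass (0.0598).

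NLRC5 and MR1 showed the largest falls of the 7 without a GC correction, and under both GC corrections NLRC5 was lowest and HLA-F lay below MR1. NLRC5 ran from 98.5 to 115 CPM with a median of 101 in miR-122-5p libraries, and from 153 to 203 CPM with a median of 178 in control libraries. The miR-122-5p libraries were tightly grouped and all lower, and NLRC5 fell by 0.80 ± 0.07 on the log2 scale (edgeR adjusted p = 1.09e-08). MR1 ran from 27.6 to 31.7 CPM with a median of 28.8 with miR-122-5p, and from 49.8 to 57.2 CPM with a median of 53.5 in the controls. MR1 fell by 0.88 ± 0.07 (edgeR adjusted p = 8.13e-10), and its groups were separated by more than the range within either.

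Counts depended on GC content differently in the 2 groups. With genes split into 5 equal classes by the GC content of the longest transcript, the class poorest in GC, which holds B2M, had a median log2 fold change of -0.30, and the next, with MR1, -0.16. The class next to the richest, with HLA-E, HLA-F and NLRC5, had a median of 0.17, and the richest, with HLA-B and HLA-C, 0.39. The GC slope of a library was 0.0336 to 0.229 with miR-122-5p and -0.318 to 0.0119 in the controls. These ranges did not overlap, so differences that go with the mimic and with the slope cannot be fully told apart. HLA-E, HLA-F, NLRC5 and MR1 passed under both ways of allowing for GC content, at log2 fold changes of -0.78, -0.89, -1.07 and -0.84 with the slope as a covariate. With the trends removed HLA-E, HLA-F and MR1 stood at -0.79, -0.80 and -0.70. All 7 genes were called lower with the trends removed, as were 23.7% of all genes, and 4 of the 7 with the covariate, as were 12.2%.

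**Figure D2:**
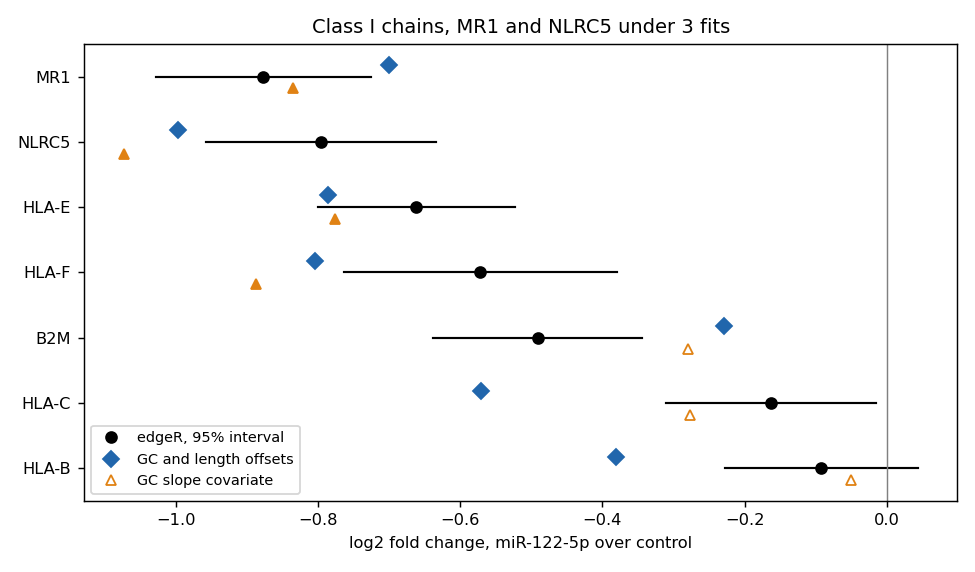
Log2 fold change (miR-122-5p over control) of the 7 genes: circles with 95% intervals give the edgeR fit, diamonds that with GC and length trends removed, and triangles that with the GC slope as a covariate (open where not called). HLA-E, HLA-F, NLRC5 and MR1 are called lower in each fit, while whether HLA-B, HLA-C and B2M are called differs between the fits.

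Levels of different genes were set side by side as RPKM, that is CPM divided by the kilobases of summed exons. With miR-122-5p the order was B2M (1011 ± 56.6 RPKM, SD, n = 6), HLA-B (569.5 ± 36.1), HLA-C (189 ± 14.9), HLA-E (181 ± 13.6), NLRC5 (8.30 ± 0.473), HLA-F (6.54 ± 0.549) and MR1 (3.12 ± 0.155). In the controls it was B2M (1421 ± 135), HLA-B (607 ± 34.1), HLA-E (286 ± 11.0), HLA-C (212 ± 13.2), NLRC5 (14.4 ± 1.48), HLA-F (9.72 ± 1.16) and MR1 (5.74 ± 0.298). HLA-C and HLA-E exchanged places, and with miR-122-5p these neighbours did not differ beyond their spread, while all other neighbours did so in both groups. Lengths of the longest transcript instead put HLA-F at 17.4 RPKM, above NLRC5 at 15.1 RPKM, with miR-122-5p. Reads were assigned against the reference alleles of the HLA genes, and the effect of this on levels between chains was not tested.

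**Figure D3:**
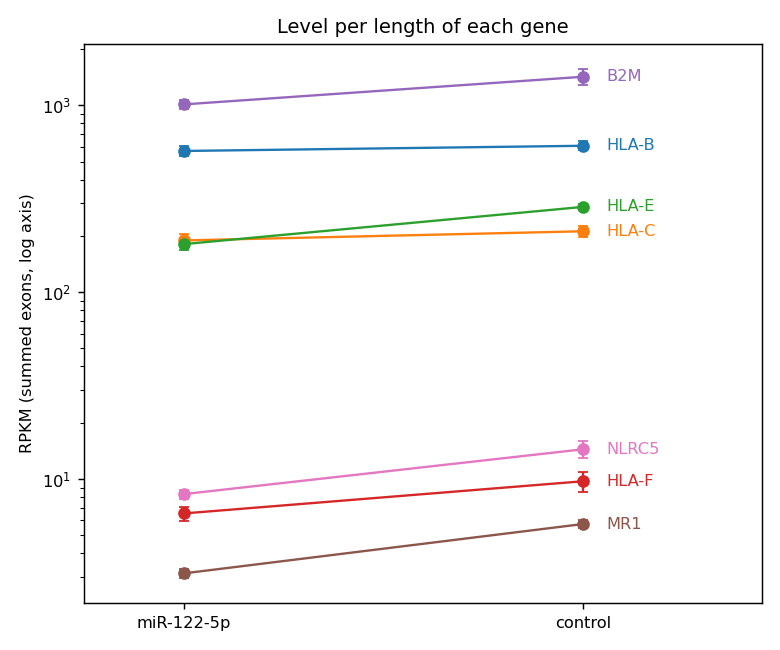
Level per length (RPKM over summed exons, log10 axis) of each of the 7 genes, miR-122-5p on the left and control on the right, as means with SD over 6 libraries each, joined by a line for each gene. B2M and HLA-B stand at the top and MR1 at the bottom in both groups, and HLA-E lies above HLA-C in the controls but not with miR-122-5p.

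Ratios of counts per kilobase within a library do not depend on scaling between libraries. The ratio of HLA-E to HLA-C was 0.956 (geometric mean) with miR-122-5p, with 1 of 6 libraries above 1, and 1.35 in the controls, with 6 of 6 above 1. The log2 difference was -0.50 ± 0.05 (two-sided exact permutation test, p = 0.00216, as small as 6 against 6 libraries permit, or 0.00433 adjusted over 4 ratios), and with GC and length trends removed it was -0.22 (adjusted exact p = 0.00866). The ratio of HLA-E to HLA-B was 0.317 with miR-122-5p and 0.471 in the controls (difference -0.57 ± 0.04, exact permutation p = 0.00216, adjusted 0.00433). HLA-C to HLA-B did not differ detectably (-0.07 ± 0.05, exact permutation p = 0.216) but was lower with the trends removed (-0.19, adjusted exact p = 0.00289), without control libraries 1, 5 and 6 (-0.15, 0.0238) and without control library 1 alone (-0.10, 0.0455). These ratios were added after the values were seen.

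Relative to B2M, in a family of 8 ratios, the heavy chains parted. HLA-B to B2M was 0.563 with miR-122-5p and 0.428 in the controls, a log2 difference of 0.39 ± 0.05, and HLA-C to B2M was 0.187 and 0.149, a difference of 0.32 ± 0.07 (each exact permutation p = 0.00216, adjusted 0.00433). With the GC and length trends removed both turned round, to -0.14 (adjusted exact p = 0.0887) and -0.34 (0.00577). HLA-E to B2M was lower with miR-122-5p by 0.18 ± 0.07 (adjusted exact p = 0.0371) and NLRC5 to B2M by 0.30 ± 0.12 (0.0346), and both held in 3 of 12 fits that left out 1 library each, whose adjusted exact p ran up to 0.0792. With the trends removed these differences were -0.56 and -0.77 (each adjusted exact p = 0.00346), and without control libraries 1, 5 and 6 they were -0.28 and -0.51 (each 0.0119). Without those libraries HLA-C to B2M differed by 0.19 (adjusted exact p = 0.0119). MR1 to B2M differed by -0.39 ± 0.09 (adjusted exact p = 0.00693), also with the trends removed (-0.47). HLA-F to B2M differed by -0.08 ± 0.13 (exact permutation p = 0.537), or by -0.58 with the trends removed (adjusted 0.00346) and -0.32 without control libraries 1, 5 and 6 (0.0119).

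NLRC5 fell relative to the summed heavy chains, among which HLA-B had the highest level in both groups. The log2 fold change of NLRC5 was -0.80, beside -0.66 for HLA-E, -0.57 for HLA-F, -0.16 for HLA-C and -0.09 for HLA-B. The ratio of NLRC5 to each single heavy chain was not tested. The ratio of NLRC5 to the summed chains HLA-B, HLA-C, HLA-E and HLA-F was 0.00878 with miR-122-5p and 0.0129 in the controls. The difference was -0.55 ± 0.07 (exact permutation p = 0.00216, adjusted 0.00433), and -0.49 with the trends removed. For MR1 that ratio was 0.00331 with miR-122-5p and 0.00515 in the controls (-0.64 ± 0.07, exact permutation p = 0.00216, adjusted 0.00433), but -0.19 (adjusted exact p = 0.0544) with the trends removed. The summed HLA chains to B2M were 0.935 with miR-122-5p and 0.787 in the controls (0.25 ± 0.06, adjusted exact p = 0.00577), a ratio added later that turned to -0.28 (0.00289) with the trends removed and was 0.17 (0.0238) without control libraries 1, 5 and 6.

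**Figure D4:**
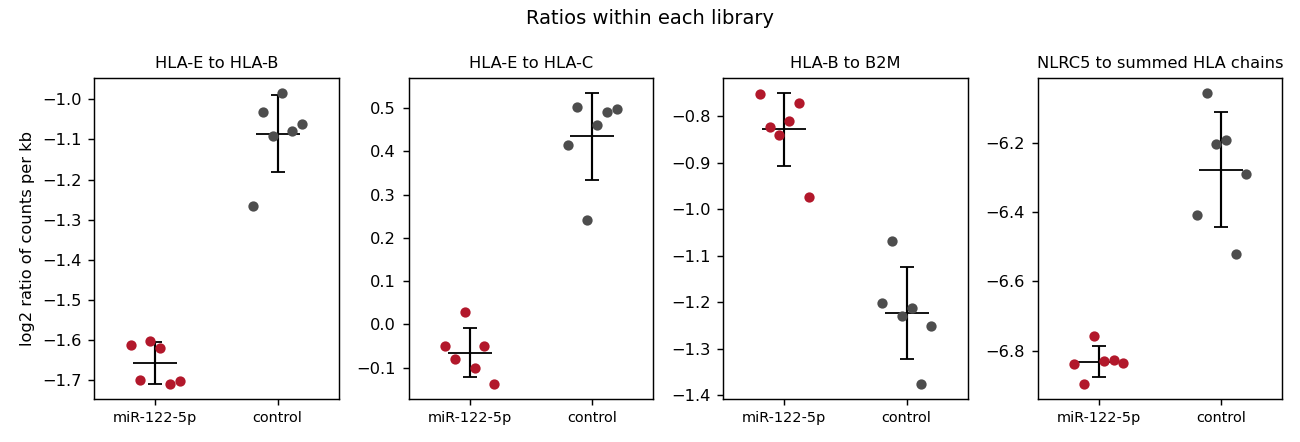
Within-library ratios of counts per kilobase (log2), miR-122-5p on the left and control on the right of each panel, 1 point for each of 6 libraries a group, with mean and SD. The axes differ between panels and do not start at 0. The ratios of HLA-E to HLA-B and HLA-C and of NLRC5 to the summed HLA chains are lower in every miR-122-5p library than in every control library, and that of HLA-B to B2M is higher.

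Sequence features and differences were set beside each other without a test. The 3 genes with a 7mer-A1 word in their 3′ UTR, MR1, NLRC5 and HLA-E, had the largest falls of the 7 without a GC correction, but HLA-F, with no word there, fell further than MR1 and HLA-E under both GC corrections. Without a GC correction, log2 fold changes were -0.57 and -0.49 for HLA-F and B2M, which held the longer ISRE word. They were -0.09 and -0.16 for HLA-B and HLA-C, which held the shorter one. With the trends removed B2M (-0.23) fell less than HLA-B (-0.38) and HLA-C (-0.57), and HLA-F was at -0.80. With the covariate HLA-F was at -0.89, B2M and HLA-C each at -0.28, and HLA-B at -0.05. MR1 (-0.88 without a GC correction) had neither ISRE word in its entries.

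Genes that load class I molecules fell for the most part. Of 9 genes of peptide transport and loading, 8 fell, none rose and CALR (0.07) did not pass, with a median log2 fold change of -0.43 (over all genes, 26.2% were called lower and the median was 0.01). TAP1 and TAP2, the subunits of the peptide transporter, changed by -1.27 ± 0.07 and -1.17 ± 0.07 on the log2 scale (edgeR adjusted p = 2.10e-12 and 1.39e-11), to 607 and 53.5 CPM with miR-122-5p, against 1465 and 120.5 CPM in the controls. ERAP2, a peptide-trimming enzyme of the endoplasmic reticulum, fell by 1.23 ± 0.14. Of 5 immunoproteasome genes, 4 fell, among them the catalytic subunits PSMB9 (-1.25 ± 0.09) and PSMB8 (-0.82 ± 0.08), and PSMB10 (-0.13) did not pass. With the GC slope as a covariate 4 of the 9 loading genes and 5 of the 5 immunoproteasome genes were called lower, beside 12.2% of all genes. With the GC and length trends removed these were 6 of the 9 and 5 of the 5, beside 23.7% of all genes. Exons of other genes overlap 32.3% of the exons of TAP2, 20.6% of PSMB8 and 34.8% of PSMB10. What this does to their counts was not tested.

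Factors that act with NLRC5 at promoters went both ways. Of 8 subunits and CREB-type factors of the SXY module, 4 fell, 1 rose and 3 did not pass, with a median of -0.19, beside 26.2% lower and 24.3% higher over all genes. RFX5, the DNA-binding subunit of RFX, fell by 0.52 ± 0.07 (edgeR adjusted p = 3.30e-06), and RFXANK, another subunit, rose by 0.27 ± 0.09 (0.0132). Under both ways of allowing for GC content 2 of the 8 fell and none rose, beside 23.7% of all genes lower with the trends removed and 12.2% with the covariate. CIITA, the NLR relative that drives class II genes, fell by 2.40 ± 0.19 (edgeR adjusted p = 1.08e-09), to 0.859 CPM with miR-122-5p, against 4.56 CPM in the controls. Of 7 tested NLR relatives 4 fell, CIITA, NOD1, NOD2 and NLRP3, and 1 rose, beside 26.2% lower and 24.3% higher over all genes. The 1 that rose was NLRX1, by 0.27, a call that ended under both ways of allowing for GC content. With the trends removed 4 of the 7 were called lower, beside 23.7% of all genes, and with the covariate 3, beside 12.2%. NLRP3 (-0.36) was not called with the covariate (edgeR adjusted p = 0.0888).

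Of 14 genes on the interferon and NF-kB routes to class I promoters, 9 fell, 1 rose and 4 did not pass, with a median of -0.26, beside 26.2% lower and 24.3% higher over all genes. The kinase JAK2, which carries signals from cytokine receptors, fell by 2.26 ± 0.13 (edgeR adjusted p = 8.09e-12). STAT2 fell by 0.90 and IRF2 fell by 0.91. IRF1, which binds ISRE words, changed by 0.08 ± 0.08 and did not pass (edgeR adjusted p = 0.394). The kinase TYK2 rose by 0.35 ± 0.08 (edgeR adjusted p = 0.000632), but changed by 0.04 with the GC and length trends removed. With the trends removed 7 of the 14 fell, beside 23.7% of all genes, and with the covariate 5, beside 12.2%, and none rose.

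Other molecules of class I form, and stress ligands related to them, were called in about the same shares as all genes. Of 17 listed, 10 passed the filter, and 2 fell, 3 rose and 5 did not pass, with a median of -0.01, beside 26.2% lower and 24.3% higher over all genes. PROCR, the endothelial protein C receptor, fell by 1.53 ± 0.08 (edgeR adjusted p = 6.46e-13) and MICB, a ligand of the receptor NKG2D, fell by 1.19 ± 0.11 (9.83e-09). FCGRT, the IgG receptor chain that also pairs with B2M, rose by 0.34 ± 0.08 (edgeR adjusted p = 0.00113), but changed by -0.04 with the trends removed. MICA and ULBP2 rose by 0.31 and 0.19. With the trends removed PROCR and MICB were still called lower, 2 of the 10, beside 23.7% of all genes, and 1 gene was called higher. With the covariate the same 2 were called lower, beside 12.2% of all genes, and 0 higher. Of 9 class I pseudogenes on chromosome 6, 4 passed the filter, and HLA-K and HLA-V fell at levels near 1 CPM, where reads can be shared with the expressed chains, and neither was called with the covariate.

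The LILR family of myeloid receptors includes inhibitory receptors of class I chains, but not every one of its genes encodes a class I receptor. Of 6 tested LILR genes, 4 fell and 1 rose, with a median of -0.62, beside 26.2% lower and 24.3% higher over all genes. LILRB2, an inhibitory receptor of class I chains, fell by 2.43 ± 0.21 (edgeR adjusted p = 5.67e-09), to 1.19 CPM with miR-122-5p, against 6.44 CPM in the controls, and LILRB1, another, fell by 0.52 ± 0.07 (1.82e-06). LILRB3 fell by 0.96 and LILRB4 fell by 0.71. LILRA2, an activating receptor that recognises cleaved immunoglobulin, rose by 0.41 ± 0.09 (edgeR adjusted p = 0.000658), with no call under the GC slope covariate. Of 5 tested genes of class I turnover at the surface, 2 fell, SPPL2A (-0.59) and RAB11A (-0.36), beside 26.2% of all genes. Neither was called with the covariate. With the trends removed 2 of the 5 were called lower and 2 higher, beside 23.7% of all genes lower, and RAB11A was at -0.03.

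**Figure D5:**
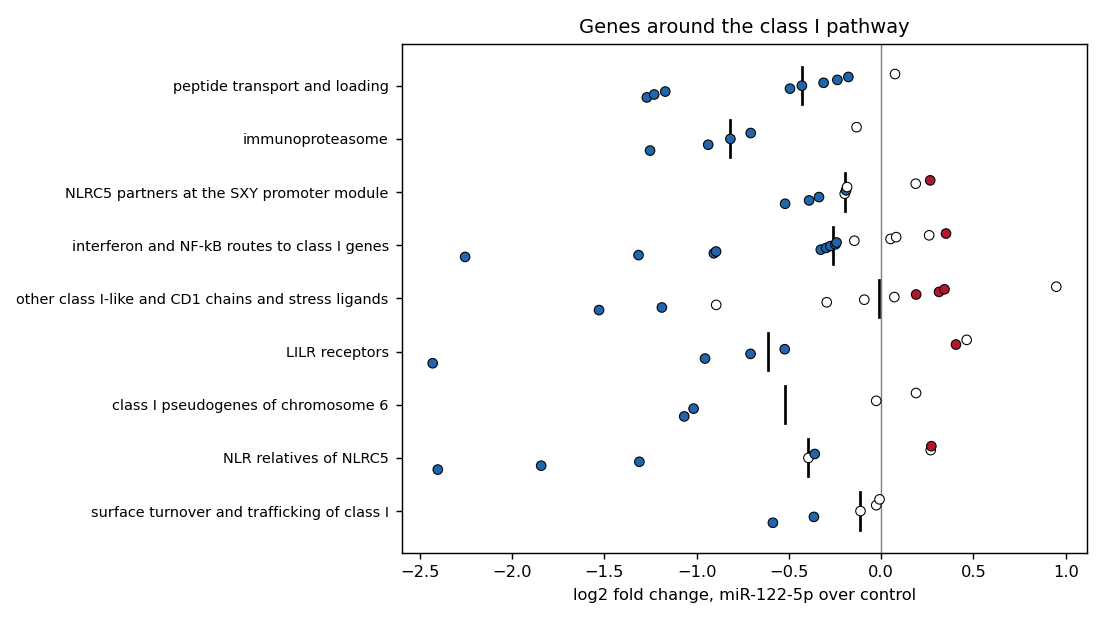
Log2 fold change (miR-122-5p over control) of each tested gene in the pathway lists, 1 point a gene, with points filled for genes called by edgeR (blue lower, red higher) and a bar at each list's median. The immunoproteasome and loading genes lie mostly below 0, and the class I-like genes and stress ligands on both sides.

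The genes whose log2 CPM followed each of the 7 most closely over the 12 libraries are given as a description, since any gene that differs between the groups correlates with any other. HLA-E was followed by IFI35, LGALS9 and IL3RA (Pearson r = 0.992, 0.989 and 0.987), NLRC5 by GTPBP1, CYBC1 and UBA7 (0.991, 0.991 and 0.990), MR1 by TBC1D9, ENDOD1 and SPTLC2 (0.990, 0.990 and 0.989) and HLA-F by MYO1G, C19orf66 and CDKN1A (0.983, 0.980 and 0.980). B2M was followed by MSANTD4, TPM3 and PLS3 (0.982, 0.976 and 0.975). HLA-B, which differed least, had lower values, with ATRAID, PSMD13 and BST2 (0.954, 0.928 and 0.898), and so had HLA-C, with AC068152.1, RHOG and TCP11L1 (0.938, 0.908 and 0.906). The points share depth and the GC slope of their library.

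In the hg38 build with GENCODE 29, HLA-E lies at chr6:30489467-30494205 and HLA-F at chr6:29722775-29738528 on the plus strand. HLA-C lies at chr6:31268749-31272130 and HLA-B at chr6:31269491-31357188 on the minus strand, where one annotated HLA-B transcript reaches into HLA-C and they share 35 bases of exon. B2M lies at chr15:44711487-44718877, NLRC5 at chr16:56989485-57083531 and MR1 at chr1:181033425-181061938, all on the plus strand. All 7 are annotated as protein-coding, and counts cover all exons.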

How the data were processed

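The authors deposited 1 table of raw read counts per gene for 12 libraries, not normalized. The hg38 build, featureCounts 1.5.0-p3 and HISAT2 2.0.5 are listed in the submitters' processing notes, and per the labels' protocols libraries were made with an NEBNext Ultra RNA kit from Trizol RNA. The strand setting is not given in the sources used here. Columns were assigned to groups by their names, the control ones from "nc".

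All 58735 identifiers were found in GENCODE 29. In R 4.3.3, edgeR 4.0.16 was fitted on all libraries with filterByExpr, TMM factors, group as the only term, the quasi-likelihood test and Benjamini-Hochberg adjustment. CPM values use TMM factors. The SE of a fold change was worked back from its size and the statistic of the quasi-likelihood test. The 95% intervals used that SE and a t distribution with 10 degrees of freedom, so they need not match the p-values exactly. Ratios were tested by two-sided exact permutation of libraries. Alternatives were DESeq2 1.42.0, limma-voom 3.58.1, RLE factors, library totals, other filters, a replicate block, each library left out, and GC and length offsets (natural splines, 4 degrees of freedom) or a GC slope covariate. Leaving out control libraries 1, 5 and 6, 4 further ratios and ratios with trends removed were chosen after seeing the data. For 6 tested genes without transcript sequence the offset was 0. Scripts were tested on simulated data. Of log2 differences of 0.5, 1 and 2 planted among the tested genes, the edgeR fit recovered 50%, 82.1% and 100%. The 7 genes, the gene lists and the alternatives were chosen with earlier results of these data known. In each list, up to 4 called genes of smallest p and any gene going against most of its list could be named; 1 such gene and some matched sequences are not reported here. CALR, PSMB10 and IRF1, which did not pass, were chosen after their values were seen. Depth was 29473750 to 39468157 counts a library.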

Additional observations from a re-analysis of the deposited data

Results flagged for a closer look

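Each series of 6 values was checked for a library standing apart, by the gap to its nearest neighbour relative to the whole range, against Dixon's 95% critical value, which chance passes in about 1 in 20 series. Of 38 series, 3 passed. HLA-E was 613.6 CPM in miR-122-5p library 1, above the next highest of that group at 540.5 CPM and the lowest at 501.7 CPM. NLRC5 was 114.5 CPM in the same library, with the next highest at 102.2 CPM and the lowest at 98.5 CPM. Both values remained below every control library. The log2 ratio of HLA-E to HLA-C was 0.24 in control library 3, below the next lowest control at 0.41 and the highest at 0.50, and above every miR-122-5p library. What sets these libraries apart was not tested.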

How the results depend on the processing

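HLA-E, HLA-F, NLRC5 and MR1 were lower under all 23 alternatives, at log2 fold changes of -0.79 to -0.62, -0.89 to -0.53, -1.07 to -0.75 and -0.89 to -0.70, and all 7 genes kept their direction in each. B2M lost its call with the GC slope covariate (-0.28). HLA-B was called with GC and length offsets (-0.38) and with offsets and replicate block (-0.37). HLA-C was not called under RLE size factors (-0.15), library totals (-0.12), no low-count filter (-0.14), replicate block (-0.16), GC slope covariate (-0.28) or an adjusted p under 0.01 (-0.16), and its values with 1 library left out ran from -0.20 to -0.13. With GC and length trends removed, the log2 differences of HLA-B to B2M, HLA-C to B2M and the summed HLA chains to B2M turned to -0.14, -0.34 and -0.28, HLA-F to B2M passed at -0.58, and MR1 to the summed HLA chains no longer passed at -0.19; in no other setting did a direction turn. HLA-F to B2M also passed without control libraries 1, 5 and 6 (-0.32). With 1 library left out, HLA-E to B2M ran from -0.21 to -0.13 and NLRC5 to B2M from -0.39 to -0.23.

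As a replicate block for the ratios, a two-sided exact sign-flip test over the 6 equal numbers left the differences at 0.39 (HLA-B to B2M), 0.32 (HLA-C to B2M), -0.18 (HLA-E to B2M), -0.30 (NLRC5 to B2M), -0.39 (MR1 to B2M), -0.55 (NLRC5 to the summed HLA chains) and -0.64 (MR1 to the summed HLA chains), with adjusted p of at least 0.0625. The smallest p this test can give before adjustment is 0.03125, reached by 4 of the 7, while HLA-E and NLRC5 to B2M had 0.0938 and MR1 to B2M 0.0625. Of the 4 ratios added later, HLA-E to HLA-C, HLA-E to HLA-B and the summed chains to B2M passed at an adjusted 0.0417. Libraries of equal number did not deviate together (Pearson r -0.105 to 0.066, 1 of 6 best with its own number), so the numbers were not taken as pairs. With the GC slope covariate 1887 of all genes were called lower and 1117 higher, against 4054 and 3756 without it. The slopes of the 2 groups did not overlap, and the cause of these changes was not tested. The lowest count of any of the 7 genes in a library was 778, for HLA-F. What limits the detection of differences as small as that of HLA-B was not tested.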
